A study of Mus musculus with 18 samples.

Results

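The Dlk1-Dio3 cluster is the large imprinted miRNA cluster of mouse chromosome 12. Its members were chosen by name: every mature arm in the deposited list of known miRNAs whose number is 1 of 48 that belong to this locus. They gave 94 mature arms from 48 precursors, of 1739 known arms from 1009 precursors in the 16 libraries used. The rule uses names and no measured value, but it was set with earlier results of these data known. Small RNA was sequenced from sperm of ICR mice, an outbred strain. The groups are F0 NHS and F0 Con, F1 NHS and F1 Con, and F2 NHS and F2 Con, with 3 libraries each. F0 NHS males received both gases, NH3 and H2S, over 5 weeks from the age of 3 weeks and then sired litters with normal females. F1 NHS males are their sons, raised without treatment and mated at 8 weeks of age with normal females, and F2 NHS males are the untreated next generation. The labels call the other group of each generation Con and describe no treatment for it. F1 Con males have the same mating age of 8 weeks.

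The series asks whether an effect of the 2 gases on sperm small RNA carries over to sons and grandsons. F1 NHS has 1 usable library, replicate 2, because the lists of its replicates 1 and 3 end before the known miRNAs. The lists of F1 NHS 2, F2 NHS 2 and F2 NHS 3 also stop early, but after their known miRNAs. Nothing in the labels says that replicates are separate animals, so each p-value is relative to how much these libraries vary, and some of that variation may come from preparation and sequencing. Levels are in TPM, here reads of a miRNA per 1000000 reads of the library, with no length term.

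Total reads per used library ranged from 18072900 to 29430555, and cluster members took 39187 to 169446 of them. Marker miRNAs of all 8 cell type lists had reads in every library, and none was at 0 anywhere. Smooth muscle markers (miR-143 and miR-145a) summed to 47150 to 119100 TPM in F0 NHS, 62660 to 169500 in F0 Con, 31510 in F1 NHS, 5927 to 13210 in F1 Con, 21110 to 34550 in F2 NHS and 12100 to 29710 in F2 Con. Late germ cell markers (miR-34b, miR-34c and miR-449a), which fit the labelled tissue, summed to 6785 to 18660 TPM in F0 NHS, 4016 to 7881 in F0 Con, 11090 in F1 NHS, 12750 to 20470 in F1 Con, 8798 to 12670 in F2 NHS and 18630 to 22170 in F2 Con. F0 NHS replicate 3 stands apart in the sum of the 4 neuron markers, with 9561 TPM against 188 to 1310 TPM in the other 15 libraries. Most of that sum is miR-124, a neuronal miRNA, which reached 7886 TPM there. Not every marker of the list was high in F0 NHS: miR-137 averaged 12.7 TPM in F0 NHS and 29.8 in F0 Con. Of these libraries, 6 carry more than 1000 TPM of a predicted miRNA whose sequence resembles a tRNA-Ala: F0 NHS 3, F0 Con 2, F1 NHS 2, F2 NHS 1, F2 Con 1 and F2 Con 2.

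As background, the Dlk1-Dio3 domain is imprinted: the protein genes Dlk1, Rtl1 and Dio3 are expressed from the paternal chromosome, and the noncoding genes Meg3, Rian and Mirg with their miRNAs from the maternal one. The parental mark is DNA methylation that the paternal chromosome acquires in the male germ line and carries in sperm. In the mouse the miRNAs are abundant in embryo, placenta and brain. Each hairpin yields a 5p and a 3p arm, of which 1 is usually kept, and bases 2 to 8 of an arm, its seed, pair with target mRNAs.

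On the mm10 assembly the 48 precursors lie on the plus strand of chr12:109563692-109743795, a span of 180.1 kb. In the GENCODE M21 annotation miR-770 lies in an exon of Meg3. The hairpins of miR-431, miR-433, miR-127, miR-434 and miR-136 lie opposite an exon of Rtl1, miR-341 and miR-370 lie in introns of Rian, 12 precursors lie in Mirg (8 in exons, 4 in introns) and 28 have no annotated host gene. The 13 precursors of the Meg3 and Rtl1-antisense side end at position 109618336, and the 35 of the Mirg side start at 109709060. RefSeq (GRCm38.p6) holds a mature sequence for 90 of the 94 arms, with 85 different seeds. The most abundant arms are shown first, each 5′ to 3′ with the seed in capitals, because they come from the 4 precursors that carry most of the reads of the cluster:
miR-127-3p: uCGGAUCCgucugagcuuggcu
miR-411-5p: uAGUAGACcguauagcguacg
miR-411-3p: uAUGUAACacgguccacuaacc
miR-379-5p: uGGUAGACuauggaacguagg
miR-379-3p: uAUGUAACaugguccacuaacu
miR-434-3p: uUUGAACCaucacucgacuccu
The neighbours miR-411 and miR-379 share the 3p seed AUGUAAC, and their 3p arms differ at 2 bases, C10U and C22U (miR-411-3p first, positions from 1 at the 5′ end). Their 5p seeds differ. miR-379-5p shares its seed with miR-1193-5p.

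Some hairpins that switch arms below (miR-411, miR-379 and miR-369), and 2 that differ between control groups, are shown next, with both mature arms in capitals:
miR-411: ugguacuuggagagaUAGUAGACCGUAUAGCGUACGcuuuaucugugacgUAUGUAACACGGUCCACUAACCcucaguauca
miR-379: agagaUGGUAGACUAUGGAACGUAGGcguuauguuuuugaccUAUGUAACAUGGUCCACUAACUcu
miR-369: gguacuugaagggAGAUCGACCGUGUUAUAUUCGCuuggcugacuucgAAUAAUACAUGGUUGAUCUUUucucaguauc
miR-299a: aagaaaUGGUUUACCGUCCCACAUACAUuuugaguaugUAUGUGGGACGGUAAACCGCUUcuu
miR-495: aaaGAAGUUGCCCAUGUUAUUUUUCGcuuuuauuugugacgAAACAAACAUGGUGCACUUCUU
miR-369 lies in an exon of Mirg at chr12:109743418-109743496, and miR-411 at chr12:109710175-109710256, with miR-379 and miR-299a on either side of it. Some arms are hard to tell apart in short reads: miR-376b-5p and miR-376c-5p differ by G19U alone, and miR-300-3p and miR-381-3p by G4A, U21G and C22U. miR-299a, miR-136 and miR-337 overlap the antisense miRNAs miR-299b, miR-3071 and miR-3544, and the sources used here do not state the strand used in counting, so their values are uncertain.

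A few precursors carried the cluster. miR-127, processed from the transcript antisense to Rtl1 and known to direct cleavage of Rtl1 mRNA in the mouse, averaged 1316 TPM over the 16 libraries with both arms summed. miR-411 averaged 1135, miR-379 averaged 521 and miR-434, another miRNA antisense to Rtl1, averaged 162. Together these 4 precursors held 76.3% to 90.04% of cluster reads in each library. Mean levels of the other 44 precursors were under 100 TPM, and 6 of the 48 averaged under 1 TPM. Of the 94 arms, 57 averaged at least 1 TPM, 22 at least 10 and 6 at least 100, while 59 had reads in all 16 libraries. miR-127-3p ranked 61 among all known arms by mean level, miR-411-5p 92, miR-411-3p 111, miR-379-5p 145, miR-379-3p 148 and miR-434-3p 179. The next arms of the cluster were miR-369-3p, miR-496a-3p, miR-341-3p, miR-541-3p, miR-541-5p and miR-369-5p, at ranks 272 to 335.

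**Figure D1:**
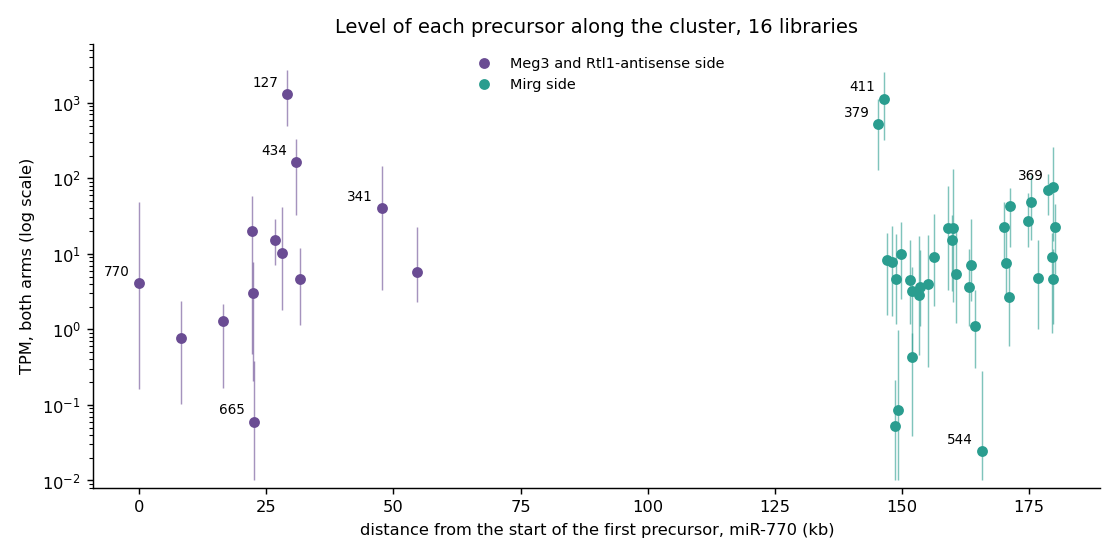
Mean TPM (both arms summed, log scale) of the 48 precursors by distance from the first precursor, with a line from the lowest to the highest of 16 libraries; lines that reach the lower edge include libraries with no reads. miR-127 (mean 1316 TPM) stands out on the left side, and miR-411 (1135) and miR-379 (521) at the start of the right side.

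The composition of the cluster differed between libraries. The share of miR-127 in cluster reads ranged from 13.2% in F0 Con 3 to 70.2% in F1 Con 3, and that of miR-411 from 9.68% in F1 Con 3 to 45.6% in F0 Con 3. The level ratio of the Mirg side over the Meg3 side was 0.680 to 2.29 in F0 NHS and 1.55 to 3.30 in F0 Con. It was 0.927 in F1 NHS and 0.336 to 1.76 in F1 Con, and 1.01 to 2.13 in F2 NHS and 1.07 to 1.91 in F2 Con. NHS and Con overlapped in this ratio in every generation. F0 NHS 3 was the lowest F0 library, and F1 Con 3 the lowest of all.

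The summed cluster was higher in F0 NHS than in F0 Con. It stood at 6105, 4675 and 5377 TPM in F0 NHS replicates 1, 2 and 3 (5386 ± 715, SD, n = 3), against 4039, 2562 and 4660 TPM in F0 Con (3754 ± 1078). The groups do not overlap, although the lowest F0 NHS library (4675) lies just above the highest F0 Con library (4660). As a share of known miRNA reads it was 1.26% ± 0.221 in F0 NHS and 0.741% ± 0.0963 in F0 Con (SD, n = 3 each), again without overlap. The log2 ratio of the F0 totals was 0.52 by TPM and 0.29 without miR-127. On the Mirg side, without miR-127, the F0 groups overlapped (2176 to 4249 TPM in F0 NHS, 1559 to 3576 in F0 Con). The Meg3 and Rtl1-antisense side, with miR-127, did not (1640 to 3201 TPM in F0 NHS, 1003 to 1123 in F0 Con). The summed cluster of the F1 NHS library was 2640 TPM, inside the range of 1532 to 3913 TPM in F1 Con. By share of miRNA reads it took 0.689%, below the 1.15%, 1.01% and 1.20% of F1 Con, so the direction in F1 depends on the scale. In F2 it stood at 5364, 2018 and 2479 TPM in F2 NHS (3287 ± 1813), against 4483, 3173 and 4662 TPM in F2 Con (4106 ± 813), and the groups overlap. By share of miRNA reads F2 NHS took 1.72%, 0.608% and 0.640%, against 1.39%, 1.56% and 1.57% in F2 Con, and F2 NHS 1 lies above the other 5 libraries of F2. No test was run on these sums.

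**Figure D2:**
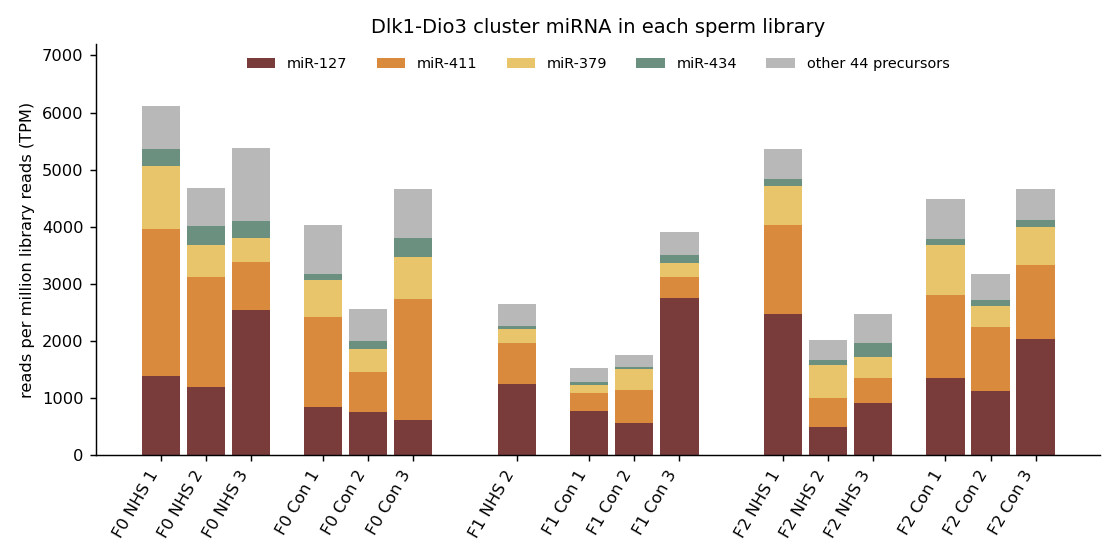
Stacked bars of TPM per library for miR-127, miR-411, miR-379, miR-434 and all other precursors, with NHS left of Con in each generation. F0 NHS libraries reach 4675 to 6105 TPM and F0 Con libraries 2562 to 4660, while F1 Con has libraries at 1532 and 1750 TPM and 1 at 3913 that is mostly miR-127.

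Which arm dominated was stable for some hairpins and changed between libraries for others. By pooled reads the 3p arm was the larger in 36 of the 43 tested precursors and the 5p arm in 7. Of the 12 precursors with at least 100 reads in every library, miR-127, miR-410, miR-434 and miR-496a stayed on the 3p arm, with a 5p share of at most 13.01% in any library. miR-411 ranged from 20.7% of reads on its 5p arm in F0 Con 3 to 97.8% in F1 Con 2. miR-379, next to it, ranged from 2.59% in F2 NHS 2 to 82.5% in F0 Con 2. miR-154 spanned 2.73% to 90.6%, and miR-541 spanned 11.9% to 77.2%. Counting error is small beside this: the widest 95% Wilson interval was 1.85 points for miR-411 and 2.71 points for miR-379. Such intervals, and the limits given for counts of 0, describe counting error alone, because reads without molecular identifiers are not separate molecules. The 2 hairpins did not move together in every library. In F2 NHS 2, 38.3% of miR-411 reads but 2.59% of miR-379 reads were 5p. Since the 3p arms share a seed and the 5p arms do not, such a library differs in which seeds it carries even where the precursor totals are alike. A wide range was not particular to the cluster: it exceeded 50 points in 8 of its 12 such precursors (median range 65.9 points), and in 101 of 169 precursors elsewhere (median 62.1 points).

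**Figure D3:**
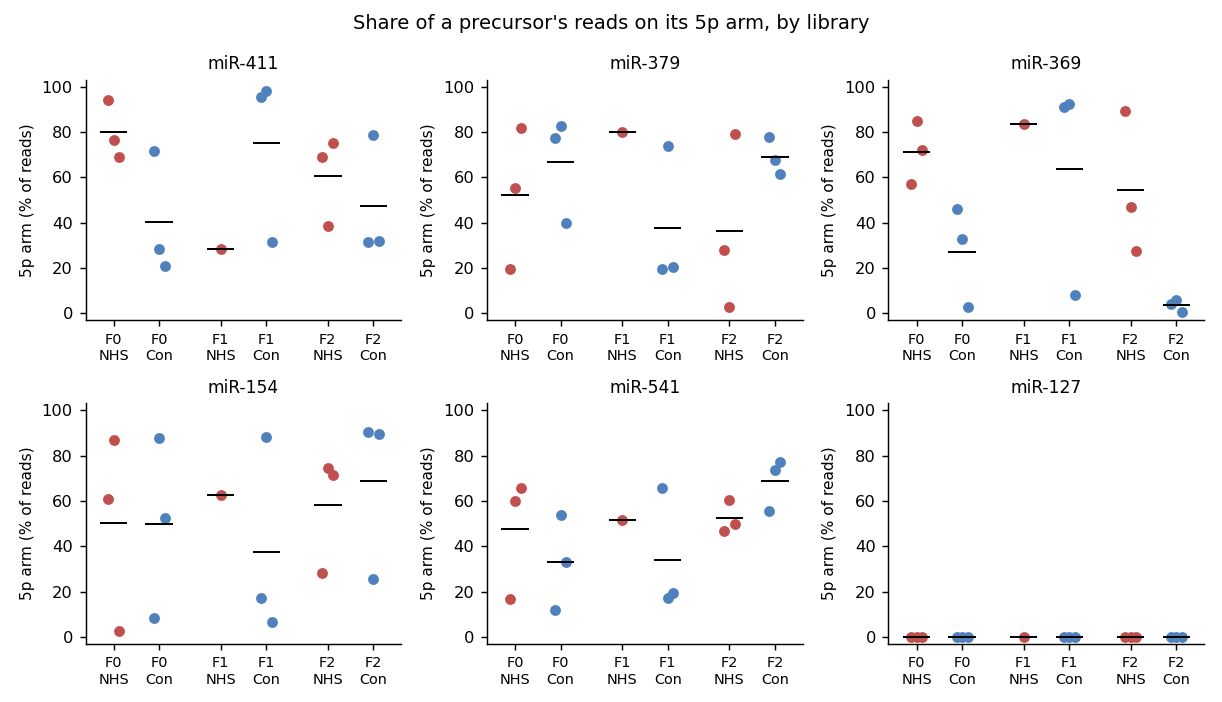
Percent of reads on the 5p arm of 6 precursors in each library (points) with the group mean (line), NHS left of Con. miR-127 stays near 0 throughout, miR-411 and miR-379 spread from under 21% to over 82% within and between groups, and miR-369 is higher in F0 NHS and F2 NHS than in their Con groups.

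Among the 12 members with at least 100 reads in every library, miR-369 was the 1 whose 5p share did not overlap between NHS and Con, in F0 and again in F2. In human cells miR-369-3p is known to act on AU-rich elements of mRNA. Its 5p arm held 56.9%, 84.7% and 72.0% of reads in F0 NHS, against 45.9%, 32.8% and 2.72% in F0 Con. In F2 it held 89.4%, 47.0% and 27.3% in F2 NHS, against 4.18%, 5.66% and 0.561% in F2 Con. The F1 NHS library was at 83.6%, against 91.0%, 92.2% and 8.14% in F1 Con. The share was thus higher in all NHS libraries than in all Con libraries of F0 and of F2, and overlapped in F1. With 370 to 6214 reads of miR-369 per library, the widest 95% Wilson interval was 10.1 points. Of 181 precursors with enough reads, 8.84% did not overlap in F0, 12.7% did not in F2, and 1.1% (2 precursors) did not in both with the same direction. Of the 12 cluster members among them, 1 did not overlap in F0 and 1 in F2, which is near that background, and each time it was miR-369. Over all 44 members with reads in every library, some with very few, 5 did not overlap in F0 and 6 in F2, and 1 did so in both with the same direction. That wider set has no share over all precursors beside it, so its counts are not read against a background. miR-369 was chosen here after its values were seen, so no p is given, and 3 against 3 libraries allow no exact two-sided p below 0.1.

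In F0, the generation that met the gases, no member passed the adjusted test. Of the 43 precursors tested (1 CPM in at least 3 libraries), 29 were higher and 14 lower in F0 NHS, and their median log2 fold change was 0.29, against 0.05 over all 461 precursors. edgeR's quasi-likelihood test called 0 (0.0% of all 461). At an unadjusted p under 0.05 there were 4 of 43 (8.46% of all), and DESeq2 called 0 (0.651% of all). By TPM, 10 of 43 did not overlap and were higher in F0 NHS (11.3% of all), and 0 did not overlap and were lower (5.21% of all). These 10 were miR-127, miR-134, miR-370, miR-412, miR-431, miR-433, miR-485, miR-487b, miR-543 and miR-666. Per arm, edgeR called 0 of 64 (0.0% of all 735), 0 had an unadjusted p under 0.05 (6.12% of all) and DESeq2 called 0 (0.136% of all).

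The smallest p values in F0 belonged to miR-323 and miR-543. miR-323 stood at 6.70, 9.24 and 18.1 TPM in F0 NHS, against 2.39, 3.35 and 7.15 TPM in F0 Con (log2 fold change 1.36, SE 0.51, edgeR adjusted p = 0.416). The groups overlap. miR-543 stood at 4.54, 4.35 and 11.2 TPM in F0 NHS, against 2.55, 2.36 and 3.42 in F0 Con (1.19, SE 0.50, edgeR adjusted p = 0.476), without overlap. Among the arms, miR-323-3p, miR-369-3p and miR-370-3p had the smallest p, each with an edgeR adjusted p of 0.735. miR-127, the most abundant member, stood at 1381, 1186 and 2535 TPM in F0 NHS, against 848, 764 and 616 TPM in F0 Con (1.07, SE 0.62, edgeR adjusted p = 0.567). In miR-323, miR-543 and miR-127 alike the highest F0 library is F0 NHS 3, the one with the highest neuron marker sum. Over all 16 libraries miR-127 was highest in F1 Con 3, at 2748 TPM.

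No other abundant precursor passed the test in F0. miR-411 stood at 2583, 1938 and 855 TPM in F0 NHS, against 1576, 698 and 2124 TPM in F0 Con (log2 fold change 0.44, SE 0.62, edgeR adjusted p = 0.815). miR-379 stood at 1108, 554 and 408.8 TPM in F0 NHS, against 651, 391 and 733 TPM in F0 Con (0.33, SE 0.55, edgeR adjusted p = 0.844). Both overlap widely, and F0 NHS 3, high in miR-127, is the lowest F0 NHS library for each. miR-434 stood at 293, 327 and 305 TPM in F0 NHS, against 89.5, 145 and 333 TPM in F0 Con (0.75, SE 0.51, edgeR adjusted p = 0.592). A single F0 Con library reached the F0 NHS level.

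F0 NHS 3 had the highest level of all 16 libraries for 20 of the 43 tested precursors. miR-770 and miR-376a are given as examples, chosen after their values were seen. miR-770, hosted by Meg3, stood at 0.360, 0.646 and 48.5 TPM in F0 NHS, against 0.314, 3.31 and 0.854 TPM in F0 Con, and at most 4.70 TPM in any F1 or F2 library. miR-376a stood at 12.7, 10.9 and 133 TPM in F0 NHS, against 34.9, 53.9 and 37.4 TPM in F0 Con. Without F0 NHS 3, the median over the precursors was 0.03 and 22 of 43 were higher in F0 NHS. The 12 tested precursors of the Meg3 and Rtl1-antisense side had a median log2 fold change of 0.84 with all F0 libraries (10 higher) and 0.46 without F0 NHS 3 (8 higher). The 31 of the Mirg side had 0.16 (19 higher) and -0.04 (14 higher). The part of the neuron marker level in these differences was not tested. In these bulk samples, a change in the cells that make up a sample and a change in RNA per cell cannot be told apart.

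In F1 the comparison rests on 1 NHS library, which is assumed to vary like the other groups. Of 43 precursors, 21 were higher and 22 lower in F1 NHS (median -0.02, and -0.04 over all precursors). With library totals in place of TMM scaling 29 were higher (median 0.49), and with a term for the tRNA-Ala-rich libraries 12 were (median -0.56). F1 NHS 2 is among those libraries, and no F1 Con library is. edgeR called 0 (0.0% of all), with 2 at an unadjusted p under 0.05 (9.76% of all), and DESeq2 called 0 (1.3% of all). Among the arms, edgeR called 0 (0.0% of all), 2 of 64 had an unadjusted p under 0.05 (5.99% of all) and DESeq2 called 0 (0.952% of all). miR-540 stood at 0.207 TPM, or 6 reads, in F1 NHS, against 1.33, 2.89 and 0.902 TPM in F1 Con (-3.57, SE 1.24, edgeR adjusted p = 0.374). miR-495 stood at 3.07 TPM in F1 NHS, against 0.586, 0.467 and 0.314 TPM in F1 Con (2.20, SE 0.97, edgeR adjusted p = 0.446). The F1 NHS library lay outside the F1 Con range for both. Of the arms, miR-540-3p, miR-539-5p and miR-495-3p had the smallest p (edgeR adjusted p = 0.745 each), and miR-539-5p had no read in F1 NHS, and a count of 0 allows up to 0.102 to 0.166 TPM per library.

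In F2, 16 precursors were higher and 27 lower in F2 NHS (median -0.31, and -0.10 over all). With library totals 21 were higher (median -0.01, and 0.23 over all), and with the tRNA-Ala term 16 (median -0.11). edgeR called 0 of 43 (0.0% of all), with 3 at an unadjusted p under 0.05 (14.8% of all). DESeq2 called 1, miR-369 (6.51% of all). By TPM 4 did not overlap and were higher in F2 NHS (12.1% of all), namely miR-329, miR-376c, miR-377 and miR-667, and 2 did not overlap and were lower (4.77% of all), namely miR-369 and miR-409. Several marker lists differed between the same groups without overlap. Epithelium and epididymis markers (6 miRNAs) summed to 15150 to 21420 TPM in F2 NHS and 6237 to 9248 in F2 Con, and skeletal muscle markers (3 miRNAs) to 240 to 969 TPM in F2 NHS and 91.8 to 165 in F2 Con. Late germ cell markers summed to 8798 to 12670 TPM in F2 NHS and 18630 to 22170 in F2 Con. Within this list, miR-34b averaged 5267 TPM in F2 NHS and 13570 in F2 Con, and miR-34c 3841 and 6608. miR-449a went the other way, at 1323 TPM in F2 NHS and 708 in F2 Con. The part of these marker levels in the F2 differences was not tested. By arm, edgeR's test called 0 of 64 (0.0% of all), 4 had an unadjusted p under 0.05 (10.9% of all) and DESeq2 called 1, miR-369-3p (3.81% of all).

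miR-369 stood at 59.0, 14.9 and 43.9 TPM in F2 NHS, against 260, 68.5 and 95.4 TPM in F2 Con, without overlap (log2 fold change -2.05, SE 0.60, edgeR adjusted p = 0.114, DESeq2 adjusted p = 0.0129). Its 3p arm stood at 6.28, 7.89 and 31.9 TPM in F2 NHS, against 249, 64.6 and 94.9 TPM in F2 Con (-3.37, SE 1.04, edgeR adjusted p = 0.288, DESeq2 adjusted p = 0.0141). Its 5p arm stood at 52.7, 7.001 and 11.96 TPM in F2 NHS, against 10.9, 3.87 and 0.536 TPM in F2 Con (2.12, SE 1.23, edgeR adjusted p = 0.541). The sum was lower with the 3p arm, while the 5p arm overlapped between the groups. Without F2 NHS 1, miR-369 and miR-485 passed edgeR's adjusted threshold, both lower in F2 NHS (adjusted p = 0.0329 each). The share of all precursors that passed at this setting is not given, so this is no result about the members as a set.

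miR-376c, of a family whose members are known targets of A-to-I RNA editing, had the next smallest p in F2. It stood at 14.2, 20.6 and 45.6 TPM in F2 NHS, against 12.1, 4.93 and 8.495 TPM in F2 Con (1.299, SE 0.471, edgeR adjusted p = 0.193). In F0 its direction was the other way: 16.4, 20.9 and 33.1 TPM in F0 NHS, against 32.9, 31.1 and 78.9 TPM in F0 Con (-1.01, SE 0.47, edgeR adjusted p = 0.534). Groups overlap in F0 and not in F2. Of the arms, miR-409-5p was at 1.16, 1.49 and 0.0769 TPM in F2 NHS, against 0.0418, 0.111 and 0.0765 TPM in F2 Con (edgeR adjusted p = 0.288). The F2 Con libraries and F2 NHS 3 lie at or below the level of 3 reads, so no fold is given.

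Among the abundant precursors in F2, miR-411 averaged 834 ± 628 TPM in F2 NHS, with 1558 and 511 TPM in replicates 1 and 2 and a lower level in replicate 3, against 1287 ± 173 TPM in F2 Con (SD, n = 3 each), at 1461, 1114 and 1287 TPM (log2 fold change -0.80, SE 0.62, edgeR adjusted p = 0.559). miR-127 stood at 2470, 495.4 and 922 TPM in F2 NHS, against 1350, 1123 and 2041 TPM in F2 Con (-0.38, SE 0.62, edgeR adjusted p = 0.822). F2 NHS 1 is the highest F2 library for both, and the other F2 NHS libraries lie below all of F2 Con. miR-379 (-0.44, SE 0.55, edgeR adjusted p = 0.750) and miR-434 (-0.06, SE 0.51, edgeR adjusted p = 0.944) overlapped too. By position, 10 of 12 precursors of the Meg3 and Rtl1-antisense side and 17 of 31 of the Mirg side were lower in F2 NHS, with median log2 fold changes of -0.35 and -0.21.

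Averaged over generations, 23 precursors were higher and 20 lower in NHS (median 0.04, and -0.01 over all). With library totals 34 were higher (median 0.34), and with the tRNA-Ala term 15 (median -0.16). edgeR called 0 of 43 (0.0% of all), 2 had an unadjusted p under 0.05 (11.1% of all), and DESeq2 called 0 (1.95% of all). The 2 were miR-369 (-1.12, SE 0.41, edgeR adjusted p = 0.297) and miR-1193 (0.88, SE 0.40, edgeR adjusted p = 0.438). For the single arms, edgeR called 0 of 64 (0.0% of all), 2 had an unadjusted p under 0.05 (7.76% of all), and DESeq2 called 1, again miR-369-3p (1.63% of all; -2.43, SE 0.77, DESeq2 adjusted p = 0.0116, edgeR adjusted p = 0.406). miR-134-5p, known in rat neurons to limit dendritic spine size through Limk1, and miR-1193-3p came next (edgeR adjusted p of 0.593 and 0.621).

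The NHS effect itself was compared between generations in 1 test with 2 degrees of freedom. edgeR called 0 of 43 precursors (0.0% of all), 3 had an unadjusted p under 0.05 (16.5% of all) and DESeq2 called 0 (5.21% of all). miR-376c (edgeR adjusted p = 0.203) and miR-540 (0.241) had the smallest p. At the level of arms, edgeR called 0 of 64 (0.0% of all), 3 had an unadjusted p under 0.05 (9.66% of all) and DESeq2 called 0 (1.5% of all), with miR-540-3p, miR-376c-3p and miR-370-3p foremost (edgeR adjusted p of 0.403, 0.426 and 0.511).

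**Figure D4:**
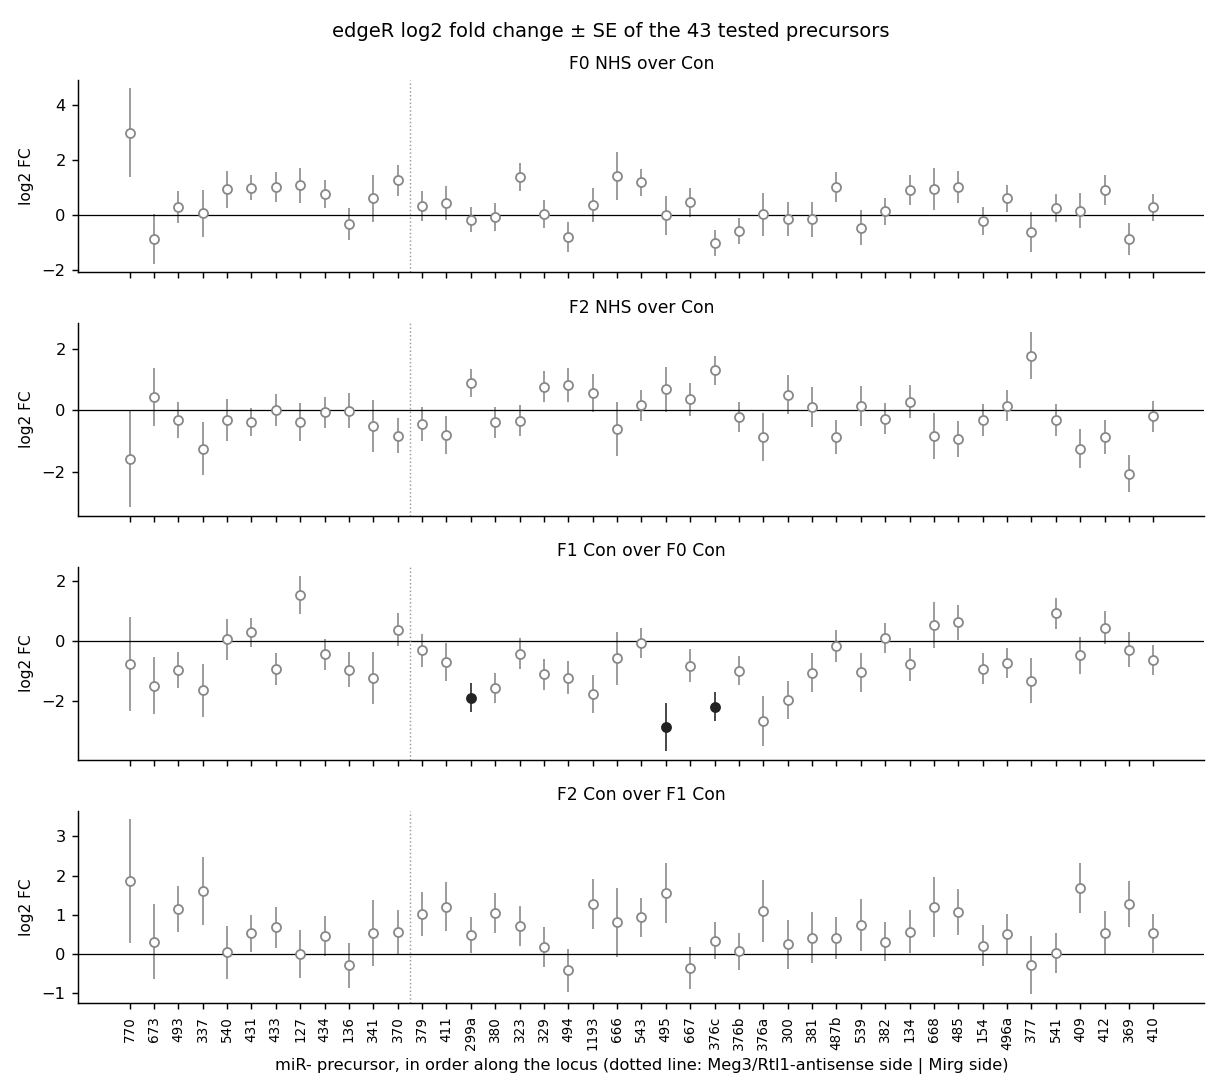
edgeR log2 fold change with its SE for the 43 tested precursors in locus order, in 4 comparisons; filled points passed the adjusted threshold. In F1 Con over F0 Con 34 of 43 lie below 0, with miR-376c, miR-299a and miR-495 filled, while in F0 NHS over Con and F2 NHS over Con no point is filled.

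edgeR called members in 2 comparisons, both between Con groups. Relative to the median of all precursors, which TMM scaling puts near 0, 34 of 43 were lower and 9 higher in F1 Con than in F0 Con (median -0.77, and 0.06 over all). Lower values made up 8 of 12 on the Meg3 and Rtl1-antisense side and 26 of 31 on the Mirg side. edgeR called 3, all lower in F1 Con (9.11% of all in either direction). An unadjusted p under 0.05 was reached by 10 (31.5% of all), and DESeq2 called 8, of which 7 were lower (24.3% of all). With both directions pooled, the members' shares called, 6.98% by edgeR and 18.6% by DESeq2, were below the background. Taken by direction, edgeR called 3 of 43 members lower, against 19 of all 461, and DESeq2 7 of 43, against 49 of 461. These counts are small, and leaving out 1 library at a time gave 0 to 6 members called by edgeR. No difference between the members and the background is read from them. As higher, edgeR called 0 of 43 members, against 23 of 461, and DESeq2 1 of 43, against 63 of 461. By TPM 31 of 43 did not overlap and were lower in F1 Con (34.5% of all), and 0 did not overlap and were higher (4.12% of all). With library totals the median of all precursors was -0.86 and that of the members -1.77, with 2 of the members higher. Known miRNAs took 13.3% to 32.6% of reads in F1 Con, against 40.6% to 57.4% in F0 Con. With arms kept apart, edgeR called 0 of 64 (0.0% of all), and 10 had an unadjusted p under 0.05 (17.3% of all). DESeq2 called 5, all lower (7.89% of all in either direction).

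The 3 precursors called are miR-376c, miR-299a and miR-495, all of the Mirg side and with no annotated host gene. miR-376c stood at 4.61, 3.31 and 8.59 TPM in F1 Con, against 32.9, 31.1 and 78.9 TPM in F0 Con (log2 fold change -2.18, SE 0.48, edgeR adjusted p = 0.0196). miR-299a stood at 2.38, 1.57 and 2.28 TPM in F1 Con, against 13.2, 13.1 and 18.8 TPM in F0 Con (-1.89, SE 0.48, edgeR adjusted p = 0.0268). miR-495 stood at 0.586, 0.467 and 0.314 TPM in F1 Con, against 4.39, 4.87 and 12.1 TPM in F0 Con (-2.85, SE 0.80, edgeR adjusted p = 0.0393). For each of them no F1 Con library reached any F0 Con library. All 3 calls were lost without F0 Con 2, F0 Con 3 or any of the 3 F1 Con libraries, and miR-299a and miR-495 also without F0 Con 1. DESeq2 also called miR-376a (-2.65), miR-300 (-1.96), miR-380 (-1.56) and miR-1193 (-1.76) as lower, with edgeR adjusted p of 0.0570, 0.0626, 0.0626 and 0.0826. The arms it called were miR-376c-3p, miR-495-3p, miR-380-3p, miR-300-3p and miR-299a-3p.

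miR-127 had the opposite direction. DESeq2 called it as higher in F1 Con (edgeR log2 fold change 1.54, SE 0.63, edgeR adjusted p = 0.109, DESeq2 adjusted p = 0.0471), and by TPM it stood at 775, 562 and 2748 in F1 Con, against 848, 764 and 616 in F0 Con, so the groups overlap. The other 3 abundant precursors were lower in F1 Con by value, at log2 fold changes of -0.70 for miR-411, -0.31 for miR-379 and -0.44 for miR-434, and none passed either test. The share of miR-127 in cluster reads was 50.6%, 32.1% and 70.2% in F1 Con, against 20.99%, 29.8% and 13.2% in F0 Con. Smooth muscle markers were 5927 to 13210 TPM in F1 Con, against 62660 to 169500 in F0 Con, and late germ cell markers 12750 to 20470 TPM in F1 Con, against 4016 to 7881 in F0 Con. Epithelium and epididymis markers were 4694 to 19980 TPM in F1 Con, against 20900 to 28970 in F0 Con, and skeletal muscle markers 67.3 to 211 TPM in F1 Con, against 467 to 1207 in F0 Con. Neuron markers were 188 to 410 TPM in F1 Con, against 613 to 1041 in F0 Con. Their part in these differences was not tested.

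**Figure D5:**
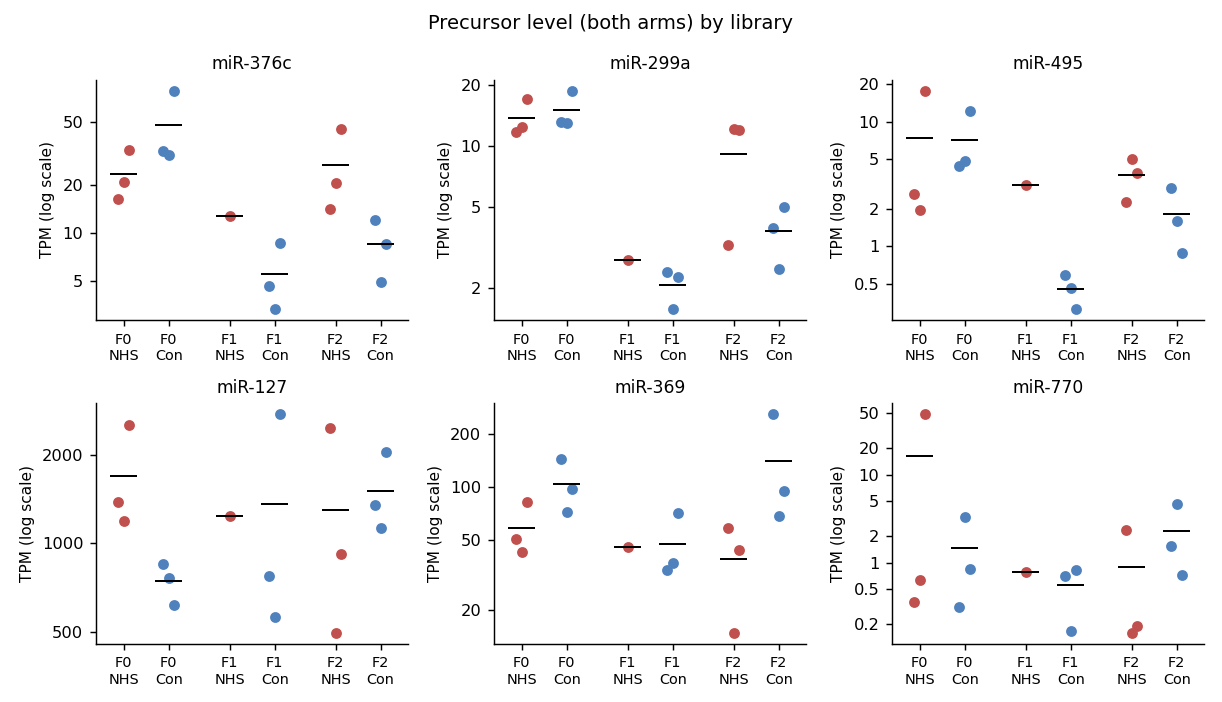
TPM of 6 precursors in each library (points, log scale) with the group mean (line), NHS left of Con. miR-376c, miR-299a and miR-495 are lower in F1 Con than in F0 Con without overlap, miR-369 is lower in F2 NHS than in F2 Con, and miR-770 has 1 high library, F0 NHS 3, at 48.5 TPM.

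Between F2 Con and F0 Con, 20 precursors were higher and 23 lower in F2 Con (median -0.10, and 0.03 over all). With library totals 12 were higher (median -0.74, and -0.58 over all). edgeR called 1, lower in F2 Con (10.2% of all in either direction, with 25 of all 461 called lower). An unadjusted p under 0.05 was reached by 9 (29.9% of all), and DESeq2 called 5 (21.3% of all). By TPM 18 did not overlap and were lower in F2 Con (27.8% of all), and 4 did not overlap and were higher (8.24% of all). The precursor called was miR-376c, at 12.1, 4.93 and 8.495 TPM in F2 Con, against 32.9, 31.1 and 78.9 TPM in F0 Con (-1.84, SE 0.48, edgeR adjusted p = 0.0417). Its call was lost without any 1 of the 3 F0 Con libraries, the 3 F2 Con libraries or F1 Con 1. It was also lost without the 6 tRNA-Ala-rich libraries, which leaves F2 Con with 1 library, and it was kept with a term for them. Smooth muscle markers were 12100 to 29710 TPM in F2 Con, against 62660 to 169500 in F0 Con, and epithelium and epididymis markers 6237 to 9248 TPM in F2 Con, against 20900 to 28970 in F0 Con. Skeletal muscle markers were 91.8 to 165 TPM in F2 Con, against 467 to 1207 in F0 Con, and late germ cell markers 18630 to 22170 TPM in F2 Con, against 4016 to 7881 in F0 Con. Within the late germ cell list, miR-34b and miR-34c averaged higher in F2 Con. miR-449a went the other way, at 708 TPM in F2 Con and 1068 in F0 Con. The part of these marker levels in this call was not tested. DESeq2 added miR-299a (-1.40), miR-494 (-1.64) and miR-300 (-1.71) as lower and miR-485 (1.68) as higher. Over the arms, edgeR called 0 of 64 (0.136% of all), 13 had an unadjusted p under 0.05 (18.5% of all) and DESeq2 called 4 (11.8% of all): miR-376c-3p and miR-494-3p lower, miR-541-5p and miR-543-5p higher.

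Between F2 Con and F1 Con, 38 precursors were higher and 5 lower in F2 Con (median 0.53, and 0.08 over all), and none passed the test. With a term for the tRNA-Ala-rich libraries, which include F2 Con 1 and 2 and no F1 Con library, 28 were higher (median 0.20). edgeR called 0 (0.0% of all), 2 had an unadjusted p under 0.05 (9.54% of all) and DESeq2 called 0 (2.6% of all). By TPM 19 did not overlap and were higher in F2 Con (13.0% of all), and 0 did not overlap and were lower (3.9% of all). miR-409 stood at 16.8, 11.0 and 16.2 TPM in F2 Con, against 4.89, 0.892 and 5.06 TPM in F1 Con (1.69, SE 0.64, edgeR adjusted p = 0.343), and miR-369 came next (1.27, SE 0.58, edgeR adjusted p = 0.467). Arm by arm, edgeR called 0 (0.0% of all), 4 had an unadjusted p under 0.05 (9.12% of all) and DESeq2 called 0 (2.31% of all). miR-411-3p, miR-369-3p and miR-369-5p had the smallest p (log2 fold changes 2.73, 2.40 and -2.93, edgeR adjusted p of 0.415, 0.476 and 0.476). The comparisons between Con groups share their libraries, so F1 Con being low enters the first and the last of them.

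Members at the low end were not tested. miR-1197, miR-544, miR-665, miR-679 and miR-758 did not reach 1 CPM in 3 libraries. miR-540-5p, also under that level and chosen after its values were seen, had reads in all 6 F0 libraries, at 0.180, 0.0680 and 0.284 TPM in F0 NHS and 0.902, 0.567 and 1.39 TPM in F0 Con. Elsewhere it had reads in 1 F2 NHS library alone. Of 23 further miRNAs of the locus, taken by position or name, 16 were listed and 7 reached the level tested. They include miR-1247-3p at a mean of 12.1 TPM and miR-3544-3p, antisense to miR-337, at 11.0 TPM.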

How the data were processed

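Small RNA of mouse sperm was sequenced in 18 libraries, of which 16 were used. The deposited table gives read counts per small RNA, per the file headers. It also gives TPM values, which the authors made from the counts: in the deposited columns, TPM is the count divided by the library total, times 1000000. The genome build is mm10, per the submitters' processing notes; the aligner, the counter and the counting strand were not named there or in the file headers. All columns of per-sample values were mapped to samples (0 unmapped). The table holds 96730 rows, and 5 libraries' lists stop there. Those of F1 NHS 1 and 3 stop before the known miRNAs, and both were left out. Those of F1 NHS 2, F2 NHS 2 and F2 NHS 3, which were used, stop after them, in the known piRNAs. Their known miRNAs form an unbroken run followed by 11963, 5284 and 2275 further entries, and their library totals were taken from count over TPM.

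Counts were tested in edgeR 4.0.16 (quasi-likelihood F test, R 4.3.3, limma 3.58.1) with group means for 6 groups, library totals times TMM factors, and a filter of 1 CPM in at least 3 libraries. This kept 735 arms and, with both arms summed, 461 precursors. Benjamini-Hochberg adjustment ran over all of them, with a threshold of 0.05. DESeq2 1.42.0 was the other tool. The fit was run on simulated data with a set spread between libraries, not the spread seen here, and with changes in F2 NHS alone. That run does not show how many true changes the fit would find in these libraries. The text names the 12 most abundant arms, the 3 arms and 2 precursors with the smallest p in each comparison, and every member called by either tool; others are said to be chosen after their values were seen. The members and lists were chosen with earlier results of these data known. The labels do not say whether replicate numbers pair the libraries, and the main fit did not treat them as pairs. Between libraries with the same number, deviations from group means correlated at -0.197 to 0.224 (median 0.023), and 8 of 30 pairs exceeded 0.1. Between libraries with different numbers they correlated at -0.215 to 0.246 (median -0.014), and 7 of 60 pairs exceeded 0.1. Some pairing is thus not excluded. Alternatives were library totals, other filters, only the groups compared, a replicate block, a term for the tRNA-Ala-rich libraries, and leaving out each library.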

Additional observations from a re-analysis of the deposited data

How the results depend on the processing

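Among the counts and totals, 360 values under other settings stayed within 1.5 times the reported count, or within 1 SD, and 32 moved. Most reported counts are 0, and a count that stayed at 0 is among the 360. For the totals, 1 SD was 0.49, 0.73 and 0.80 log2 units in F0, F1 and F2, which is a wide limit. This tally is therefore no measure of how firm the results are. Direction was followed for members with a smallest p or a call, each in the comparison concerned. None of these changed direction under any setting run. Fold changes given for other members were not followed in this way. With DESeq2 the members called were 1 arm in F2 NHS over Con, 1 in the mean over generations, 5 in F1 Con over F0 Con and 4 in F2 Con over F0 Con, and 1, 8 and 5 precursors in F2 NHS over Con, F1 Con over F0 Con and F2 Con over F0 Con. With library totals F1 Con over F0 Con called 6 arms and 21 precursors, and F2 Con over F0 Con 4 precursors. With only the groups compared these counts of precursors were 5 and 2. A term for the tRNA-Ala-rich libraries gave 2 precursors in F2 Con over F0 Con, and leaving those libraries out, chosen after seeing the data, gave 0, with F2 Con then an arm of 1 library, assumed to vary like the other groups. The log2 ratio of the cluster total in F1 changed sign with the scale: 0.14 by TPM, 0.43 by TPM without miR-127, -0.33 after TMM scaling and -0.70 by percent of miRNA reads. The cause of these shifts was not tested. Except for DESeq2, the counts of members called under other settings in this section have no share over all features beside them. They show how the counts move with the setting and are not read against a background.

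Leaving out 1 library at a time gave 0 to 2 precursors called in F2 NHS over Con, 0 to 6 in F1 Con over F0 Con and 0 to 4 in F2 Con over F0 Con, and 0 in all other comparisons. The count of 6 came without F0 NHS replicate 3, and that of 4 without F2 NHS replicate 1. Without F2 NHS replicate 3 it was 2. The log2 ratio of the cluster total ranged from 0.31 to 0.71 in F0, from -0.10 to 0.69 in F1 and from -0.87 to -0.07 in F2. F1 NHS over Con and the mean over generations have no value without F1 NHS replicate 2, and the mean was not run with only the groups compared. With replicate number as a block, edgeR called 2 precursors in F1 Con over F0 Con (miR-495 was lost), 1 in F2 Con over F0 Con and 0 in the others, and 7 of 15 libraries correlated best with their own number. The call of miR-299a in F1 Con over F0 Con was lost with no filter.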
